A study of Mus musculus with 12 samples.

Results

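Acod1 and Slc13a3, a gene for the synthesis and a gene for the cellular uptake of itaconate, were followed through all 12 libraries of a study of macrophages exposed to medium from neuroblastoma cells. They were found in the count table by gene ID and symbol, 2 of 54232 genes. Both were chosen from earlier results on these same libraries, in which they stood out by their rise with tumor-conditioned medium (TCM) and, for Slc13a3, by its response to R788. Their changes are therefore given as values with errors and without a test.

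Acod1 (also called Irg1) encodes aconitate decarboxylase 1, a mitochondrial enzyme that takes cis-aconitate out of the tricarboxylic acid (TCA) cycle and turns it into itaconate. Macrophages are the cells best known for making itaconate, mostly after Toll-like receptor or interferon signals, and the metabolite is known to inhibit succinate dehydrogenase, to modify KEAP1 and so release NRF2, and to restrain the IκBζ program. Slc13a3 encodes NaDC3, a sodium-coupled transporter of the plasma membrane that carries succinate and other dicarboxylates into cells and also takes up itaconate.

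The cells were bone marrow derived macrophages (BMDMs) of C57BL/6 mice, and poly(A) RNA was sequenced. After 5 days of culture they had 24 h with TCM or none and with 500 nM R788 (fostamatinib, an inhibitor of the kinase Syk) or none. The 6 groups of 2 libraries were NS (neither), R788, NB9464 TCM, NB9464 TCM + R788, NBT3L TCM and NBT3L TCM + R788. NB9464 is a mouse neuroblastoma line with amplified MYCN and NBT3L one without it. A difference between these media thus rests on 1 line of each kind. The methods give NB9464 TCM as collected over 48 h in DMEM without serum. The sources used here describe neither how NBT3L TCM was prepared nor which medium and which R788 vehicle the other cells got, so TCM cannot be told apart from base medium and serum in any comparison with NS or R788. The sources also do not say whether the libraries of a group came from separate cultures or animals, and errors and p-values then measure only the spread between these libraries, which may be technical.

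Total counts were between 44977847 and 56449685 per library, and SJ8, an R788 library, had the fewest genes with a count, 16149. The 8 macrophage genes checked, among them Csf1r, Adgre1 and Lyz2, had at least 1247 counts in every library. Of 24 marker genes of other cells, Th was at 0 in all libraries and Ly6g had at most 4 counts. Others were present in every library, among them S100a9 (1436 to 2738 counts), Col1a1 (579 to 1912), Camp (175 to 364) and Col3a1 (90 to 506). Pecam1 had 22 to 63 counts without TCM and 366 to 877 with it. The summed counts of these 24 genes were between 5102 and 5933 in the libraries without TCM and between 8187 and 10906 in those with it, where S100a8 supplied most of them. Of neuroblastoma markers, Mycn had 0 counts without TCM, 7 and 25 with NB9464 TCM, 8 and 12 with NBT3L TCM, 23 and 37 with NB9464 TCM + R788 and 0 with NBT3L TCM + R788. Dbh had 16 and 20 counts with NBT3L TCM, 15 and 12 with NBT3L TCM + R788 and 0 in the other libraries. The sum of the 24 markers was higher with the same media as Acod1 and Slc13a3, and the part of these cells in the results was not tested.

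Acod1 (ENSMUSG00000022126) lies at chr14:103046977-103056573 on the plus strand of GRCm38 (mm10), with 5 merged exons of 2623 bases in all, and shares no exon base with another gene. Slc13a3 (ENSMUSG00000018459) lies at chr2:165405028-165473230 on the minus strand, with 13 merged exons of 5215 bases in all. The antisense gene Gm14437 lies across part of its span but shares 0 exon bases with it. The promoters are shown because both genes rose with the same media. They are RefSeq sequences (GRCm38.p6), printed 5′ to 3′ on the strand of the gene up to the first annotated base of the gene. For Acod1 a stretch of 30 bases around the TATAAA is added, which reaches past the start given by GENCODE but stays before that given by RefSeq, 35 bases further on. Capitals mark TATAAA in Acod1 and CACGTG in Slc13a3.
Acod1, chr14:103046762-103046976, plus strand: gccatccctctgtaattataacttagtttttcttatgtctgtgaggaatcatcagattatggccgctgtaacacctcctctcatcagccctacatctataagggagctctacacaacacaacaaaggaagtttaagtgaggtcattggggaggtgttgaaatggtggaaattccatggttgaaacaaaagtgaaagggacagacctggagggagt
Acod1, chr14:103046972-103047001, plus strand: ggagtgactgtgTATAAAggcacacgtcca
Slc13a3, chr2:165473231-165473447, minus strand: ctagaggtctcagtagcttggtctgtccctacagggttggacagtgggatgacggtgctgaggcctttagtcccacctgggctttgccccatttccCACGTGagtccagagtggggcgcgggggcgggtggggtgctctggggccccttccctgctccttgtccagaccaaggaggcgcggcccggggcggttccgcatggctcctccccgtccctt

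The windows searched held 250 bases before and 50 after the RefSeq start, on both strands. TATAAA stood at -28 to -23 from the Acod1 start, and 13.6% of all 32851 such windows hold it. ACGTG, the core of the hypoxia response element, stood at -18 to -14 on the opposite strand in Acod1. In Slc13a3 it was found on both strands within CACGTG, at -154 to -149, and 19.6% of all windows hold these letters. The letters GGGANNTTC (NF-κB), GAAANNGAA (interferon response), TTCNNNGAA (STAT), TGANTCA (AP-1), TTGCNNAA (C/EBP) and GAGGAAGT (PU.1), which 3.2% to 10.8% of windows hold, were in neither window. Only these exact letters were searched, so sites with other spellings may be present. The Slc13a3 window was 69.3% G and C and that of Acod1 47.0%, against a median of 52.7% over all windows.

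Acod1 was well expressed without TCM and among the most abundant transcripts with it. In the NS libraries, Acod1 had 11575 and 10962 normalized counts (read counts divided by the size factor of the library). NB9464 TCM libraries had 146862 and 143037, and NBT3L TCM libraries 177984 and 182060. The groups did not overlap. On the log2 scale, Acod1 was 3.69 ± 0.046 (standard error, SE) higher with NB9464 TCM than in NS, a 12.9-fold difference, and 4.0 ± 0.046 higher with NBT3L TCM, a 16.0-fold difference. Per length, in TPM (a count divided by gene length and scaled to a common total), Acod1 stood at 262 to 286 TPM in NS, where it was between the 511th and the 556th most abundant gene. With either TCM it stood at 2839 to 3366 TPM and was between the 20th and the 25th. In bulk RNA, a change in the number of cells that express a gene and a change in its RNA per cell cannot be told apart.

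Slc13a3 was low without TCM, and its difference between the media was larger. The NS libraries had 967.4 and 967.2 normalized counts, the NB9464 TCM libraries 33137 and 33838, and the NBT3L TCM libraries 48200 and 46441. Again no group overlapped another. The log2 difference from NS was 5.11 ± 0.060 with NB9464 TCM (34.6-fold) and 5.61 ± 0.060 with NBT3L TCM (48.9-fold). In TPM, Slc13a3 went from between 11.6 and 12 in NS to between 337.8 and 448.7 with TCM. Both comparisons use the same NS libraries. Among 16281 genes tested, the difference of Slc13a3 was the 264th largest in the upward direction with NB9464 TCM and the 206th with NBT3L TCM, and that of Acod1 the 466th and the 429th.

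**Figure D1:**
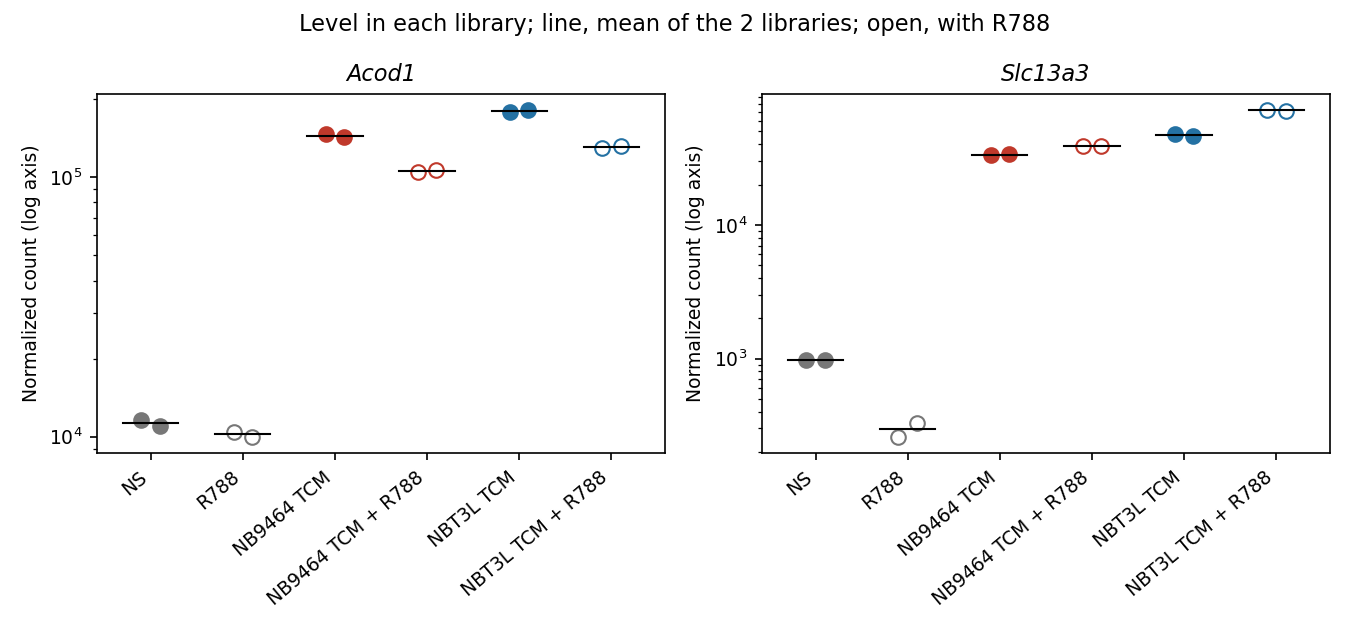
Normalized counts of Acod1 (left) and Slc13a3 (right) in each of the 12 libraries, on log axes that do not start at 0. Points are libraries, open where R788 was given, and lines are means of the 2 libraries of a group. Acod1 lies between 10001 and 11575 without TCM and between 104946 and 182060 with it, and each group of Slc13a3 lies apart from the others, from 259.9 to 72476.

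The 2 genes differed in their values under R788. The Acod1 level in the R788 libraries, 10452 and 10001 normalized counts, was below both NS libraries by a log2 difference of -0.14 ± 0.046. With NB9464 TCM + R788 the libraries had 104946 and 107026, which was -0.45 ± 0.045 against NB9464 TCM alone. With NBT3L TCM + R788 they had 129715 and 131791, which was -0.46 ± 0.045 against NBT3L TCM alone. Acod1 was thus lower with R788 in all 3 media, in every pair of libraries, by 1.10-fold without TCM and by 1.37-fold and 1.38-fold with it. Among 16281 genes tested, these falls were the 6221st largest without TCM, the 2933rd with NB9464 TCM and the 2482nd with NBT3L TCM. The difference was larger with TCM than without by -0.31 ± 0.064 (NB9464) and -0.32 ± 0.064 (NBT3L), 2 values that share the NS and R788 libraries. Acod1 still lay far above its level without TCM in the presence of R788, 10.4-fold with NB9464 TCM and 12.8-fold with NBT3L TCM.

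Slc13a3 was at 259.9 and 332.1 normalized counts in the R788 libraries, below the 967 of NS. This was a log2 difference of -1.70 ± 0.081, or 3.25-fold lower, and the values rest on 286 and 416 reads. With TCM the difference had the opposite sign. NB9464 TCM + R788 libraries had 38689 and 38620, a log2 difference of 0.21 ± 0.051 above NB9464 TCM alone. NBT3L TCM + R788 libraries had 72476 and 71652, which was 0.61 ± 0.051 above NBT3L TCM alone, 1.52-fold. In each medium both R788 libraries lay on the same side of both libraries without R788. The difference between the R788 effects with and without TCM was 1.91 ± 0.096 for NB9464 TCM and 2.31 ± 0.096 for NBT3L TCM. Without SJ8, the R788 library with few detected genes, these were 2.10 and 2.50, and R788 against NS was -1.90. Without SJ7 they were 1.75, 2.15 and -1.54.

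The span of Slc13a3 between no TCM and TCM was wider in the presence of R788. Slc13a3 was 130-fold higher in NB9464 TCM + R788 than in R788 (log2 difference 7.02 ± 0.075) and 242-fold higher in NBT3L TCM + R788 (7.92 ± 0.075). The latter was the 43rd largest upward difference of all 16281 genes in that comparison, where Acod1 was the 659th. These folds rest on a low level in the R788 libraries, and with SJ7 or SJ8 left out the log2 differences ranged from 6.86 to 7.21 and from 7.76 to 8.11.

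**Figure D2:**
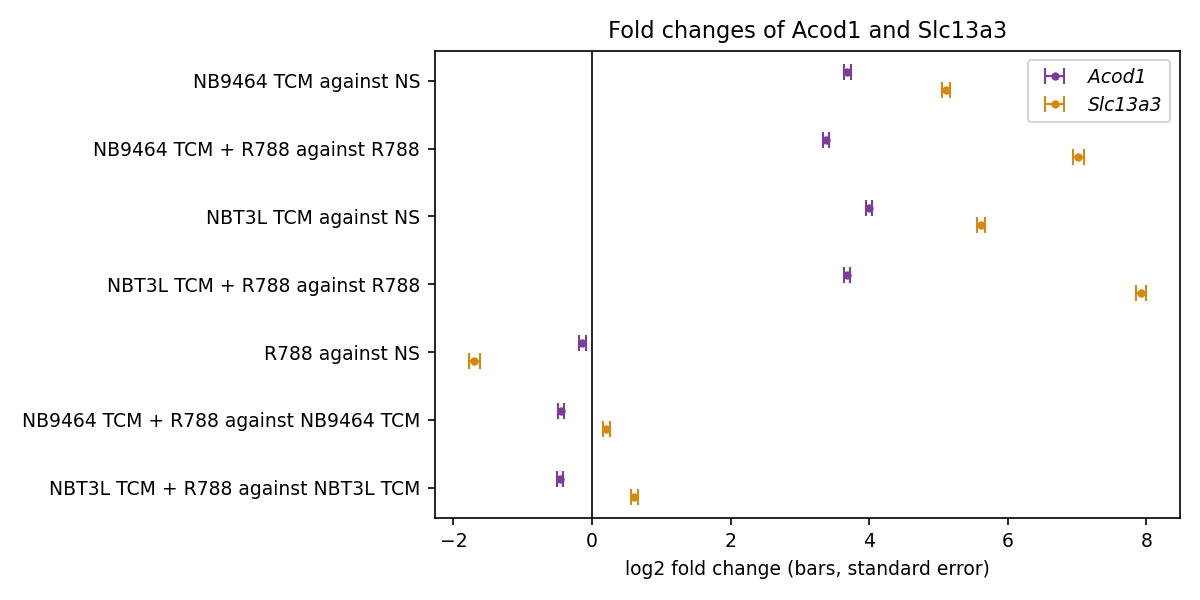
Log2 fold changes of Acod1 (purple) and Slc13a3 (orange) in 7 comparisons, with bars for the SE. In the upper rows, TCM against no TCM, both genes are at 3.37 or above, and in the lower rows, R788 against no R788, Acod1 lies below 0 each time while Slc13a3 goes from -1.70 without TCM to 0.21 and 0.61 with it.

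Both genes were higher with NBT3L TCM than with NB9464 TCM, whether R788 was present or not. The NB9464 value was below the NBT3L value by -0.31 ± 0.045 (Acod1) and -0.50 ± 0.051 (Slc13a3) on the log2 scale, and under R788 by -0.30 ± 0.045 and -0.90 ± 0.051. At the same R788 state, both NB9464 libraries lay below both NBT3L libraries. From high to low, the groups were ordered for Acod1 as NBT3L TCM, then NB9464 TCM, then NBT3L TCM with R788, NB9464 TCM with R788, NS and R788. For Slc13a3 the order was NBT3L TCM with R788, then NBT3L TCM alone, NB9464 TCM with R788, NB9464 TCM alone, NS and R788. No neighbors in either order overlapped. The smallest gap for Acod1 was between NS and R788, whose means of 11268 ± 433 and 10227 ± 319 (SD, n = 2) differed by more than either SD.

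The balance between synthesis and uptake genes followed from this. The ratio of Acod1 to Slc13a3, both in TPM, was 23.8 and 22.5 in NS and 79.9 and 59.9 in R788. It was 8.81 and 8.40 with NB9464 TCM and 7.34 and 7.79 with NBT3L TCM. With R788 added to TCM it was lowest, 5.39 and 5.51 for NB9464 and 3.56 and 3.66 for NBT3L. R788 therefore went with a higher ratio without TCM and a lower one with it, and no group overlapped another.

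**Figure D3:**
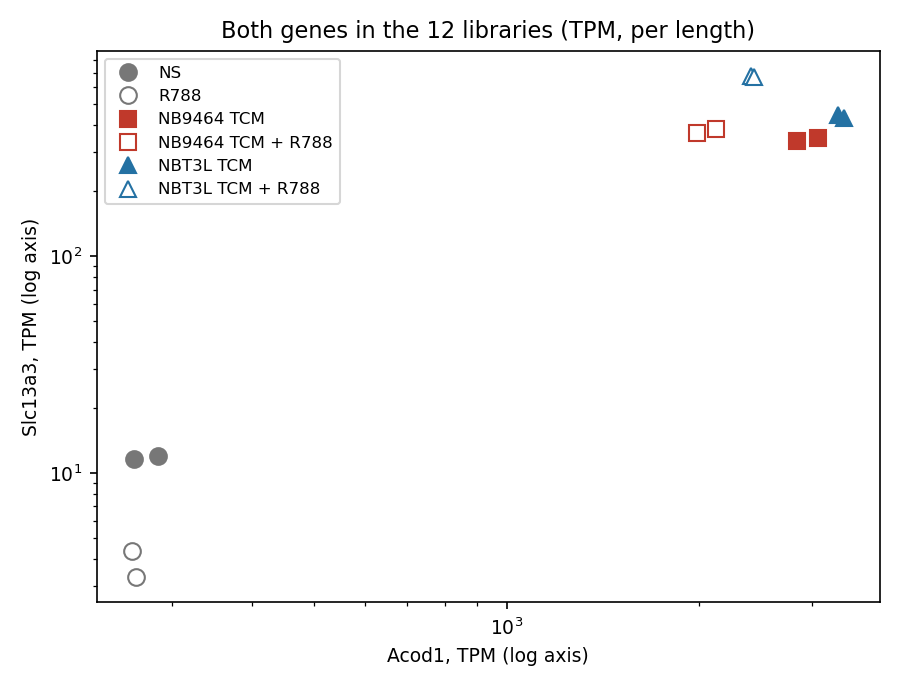
Acod1 against Slc13a3 in TPM in the 12 libraries, on log axes. Libraries without TCM (circles) lie at the lower left, at 260 to 286 TPM of Acod1, and those with TCM at the upper right. Within each TCM, the libraries with R788 (open symbols) lie to the left on the Acod1 axis and higher on the Slc13a3 axis.

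Syk, the kinase that R788 inhibits, was itself measured. Its mRNA was at 14987 ± 623 normalized counts in NS, 33935 ± 428 with NB9464 TCM and 37341 ± 339 with NBT3L TCM (SD, n = 2). R788 libraries lay above their counterparts in all 3 media, by log2 differences of 0.26, 0.32 and 0.24 (DESeq2 adjusted p = 3.4e-06, 7.3e-09 and 5.6e-05). R788 inhibits the kinase protein, so the level of the transcript does not check its action. Why the transcript was higher with R788 was not tested.

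Around the 2 genes, 84 genes were listed by their place in the itaconate pathway and 79 were tested. The lists were chosen with earlier results of these data known. The shares called therefore describe these genes and do not test for an excess in the pathway. With NB9464 TCM, 58 of the 79 passed the test (adjusted p under 0.05 in DESeq2), 42 higher and 16 lower, while 34.1% of all 16281 tested genes did. With NBT3L TCM it was 61, 48 higher and 13 lower, against 35.3% of all genes. Without TCM, R788 moved 42 of the 79, 16 higher and 26 lower, against 26.6%. With NB9464 TCM, R788 moved 35, 21 higher and 14 lower, against 14.5%. With NBT3L TCM it moved 25, 9 higher and 16 lower, against 12.6%. The listed genes are mostly abundant, and among the 10715 genes averaging 100 normalized counts or more the shares called were higher too, 46.9%, 48.9%, 37.8%, 21.2% and 18.3% in the same order. The median log2 difference of the 79 was 0.23 and 0.31 with the 2 media and -0.04, 0.05 and 0.05 for R788, while that of all genes was 0.02 at most.

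Of 10 genes that supply cis-aconitate, 8 were called higher with NB9464 TCM, 9 with NBT3L TCM and none lower. These shares were 80.0% and 90.0%, against 46.9% and 48.9% called in either direction among genes averaging 100 normalized counts or more. Pdhb, a subunit of pyruvate dehydrogenase, was called with neither (0.19 and 0.06). Pcx, which makes oxaloacetate from pyruvate, rose most, from 550 ± 36 normalized counts in NS to 2641 ± 75 with NB9464 TCM and 3055 ± 212 with NBT3L TCM (log2 2.26 ± 0.11 and 2.47 ± 0.11, adjusted p = 5.7e-88 and 7.7e-105). Cs, citrate synthase, rose by 0.23 and 0.36.

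Slc25a10, the mitochondrial dicarboxylate carrier, showed a pattern of its own in this list. It was at 3533 ± 56 in NS, 6719 ± 240 with NB9464 TCM and 6207 ± 46 with NBT3L TCM. Under R788 it fell without TCM, to 2897 ± 58 (log2 difference -0.29, adjusted p = 4.2e-05), and rose with TCM, to 10370 ± 169 and 9578 ± 132 (log2 0.63 in each medium, adjusted p = 1.3e-23 and 3.2e-23). Its exons share 228 bases with the antisense gene Gm11788. Of the same list, Cs also fell under R788 without TCM, by 0.32 on the log2 scale, and with TCM was at -0.01 and -0.06.

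The breakdown of itaconate runs through its CoA ester, which Suclg1, Suclg2 or Sucla2 help to form, then Auh and last Clybl, the citramalyl-CoA lyase. With NB9464 TCM 1 of these 5 genes was called and with NBT3L TCM 2, shares of 20% and 40%. These lie around the 34.1% and 35.3% of all genes. They lie below the 46.9% and 48.9% of genes averaging 100 normalized counts or more. In the interaction of R788 with NB9464 TCM, 2 of the 5 were called, Suclg1 (0.54, adjusted p = 0.00022) and Clybl (0.75, adjusted p = 0.017), against 12.5% of all genes. In the interaction of R788 with NBT3L TCM, 0 of the 5 were called, against 10.1% of all genes. Among genes averaging 100 normalized counts or more, these 2 interactions called 18.3% and 15.0%. The call of Clybl was lost without SJ2, SJ4, SJ8 or SJ9 (adjusted p = 0.12, 0.10, 0.097 and 0.099). Suclg2 was at -0.40 and -0.53, and Clybl at 0.17 and 0.49, and the calls of both genes were lost when SJ1, an NS library, was left out (Suclg2 -0.30 and -0.43, adjusted p = 0.27 and 0.078, and Clybl with NBT3L TCM 0.41, adjusted p = 0.15). With NB9464 TCM the call of Suclg2 was also lost without SJ3 or SJ4 (adjusted p = 0.070 and 0.18), and with NBT3L TCM the calls of Suclg2 and Clybl without SJ6 (adjusted p = 0.058 and 0.19). Sucla2 was at 0.00 and -0.02 and Auh at 0.00 and -0.05. Suclg1 fell by 0.39 with R788 without TCM (adjusted p = 8.9e-05), and none of the 5 was called for R788 with either TCM.

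Among transport and receptor genes, Slc13a3 had few companions. Of its relatives, Slc13a1 had 0 counts in every library, which allows up to 3, and Slc13a4 and Slc13a5 had at most 4. Slc13a2, the NaDC1 transporter, had between 14 and 75 counts and shares 632 exon bases with its antisense gene. Its only call, log2 1.91 for R788 with NBT3L TCM, was lost with edgeR (adjusted p = 0.086) and without any 1 of these 4 libraries, where adjusted p was 0.18 without SJ5, 0.21 without SJ6, 0.13 without SJ11 and 0.29 without SJ12. Oxgr1, a receptor for itaconate, had 0 counts throughout and Sucnr1, the succinate receptor, 4 to 35. Rab32, a small GTPase needed to deliver itaconate to bacteria-containing vacuoles, rose with R788 without TCM by 0.66 and with NB9464 TCM by 0.42 (adjusted p = 9.6e-32 and 1.3e-12), and was at 0.12 with R788 in NBT3L TCM, which was not called. It was higher with NBT3L TCM than in NS by 0.36 and at -0.12 with NB9464 TCM. Abcg2, which exports itaconate, had 242 to 601 counts and was at -0.62 and -0.43 with the 2 media. Its call with NB9464 TCM was lost without SJ1, SJ2 or SJ3 (adjusted p = 0.088, 0.088 and 0.17, with -0.49 without SJ3).

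Of 15 genes of the later TCA cycle, 6 were called higher and 2 lower with NB9464 TCM, and 7 and 3 with NBT3L TCM. The share called with NB9464 TCM, 53.3%, is near the 46.9% of genes averaging 100 normalized counts or more, and that with NBT3L TCM was 66.7% against 48.9%. Mdh2 (malate dehydrogenase) rose by 0.62 and 0.76, Ogdh (oxoglutarate dehydrogenase) by 0.51 and 0.48 and Dlst, a subunit of the same complex, by 0.47 and 0.52, while Idh2 (isocitrate dehydrogenase) fell by 0.36 and 0.29. Sdha, the catalytic subunit of the succinate dehydrogenase that itaconate inhibits, was at -0.07 and -0.10. With R788 without TCM, 7 were called lower and 1 higher, 53.3% against 37.8% of genes averaging 100 normalized counts or more. Idh3a fell by 0.71 and Mdh2 by 0.51, and Idh1, the cytosolic isocitrate dehydrogenase, rose by 0.62 (adjusted p = 3.9e-19, 4.8e-16 and 2.6e-23). With TCM these 3 were between -0.18 and 0.15 under R788 and none was called. Other genes of the 15 were called for R788 with NB9464 TCM, 6 higher and 2 lower, 53.3% against 21.2% of genes averaging 100 or more. Most of these calls were lost with edgeR, those of Idh3b, Dlst, Sdhc, Sdhd and Acly (adjusted p = 0.063, 0.074, 0.067, 0.065 and 0.094). The share of 53.3% thus depended on the test used. For R788 with NBT3L TCM 1 of the 15 was called, lower.

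**Figure D4:**
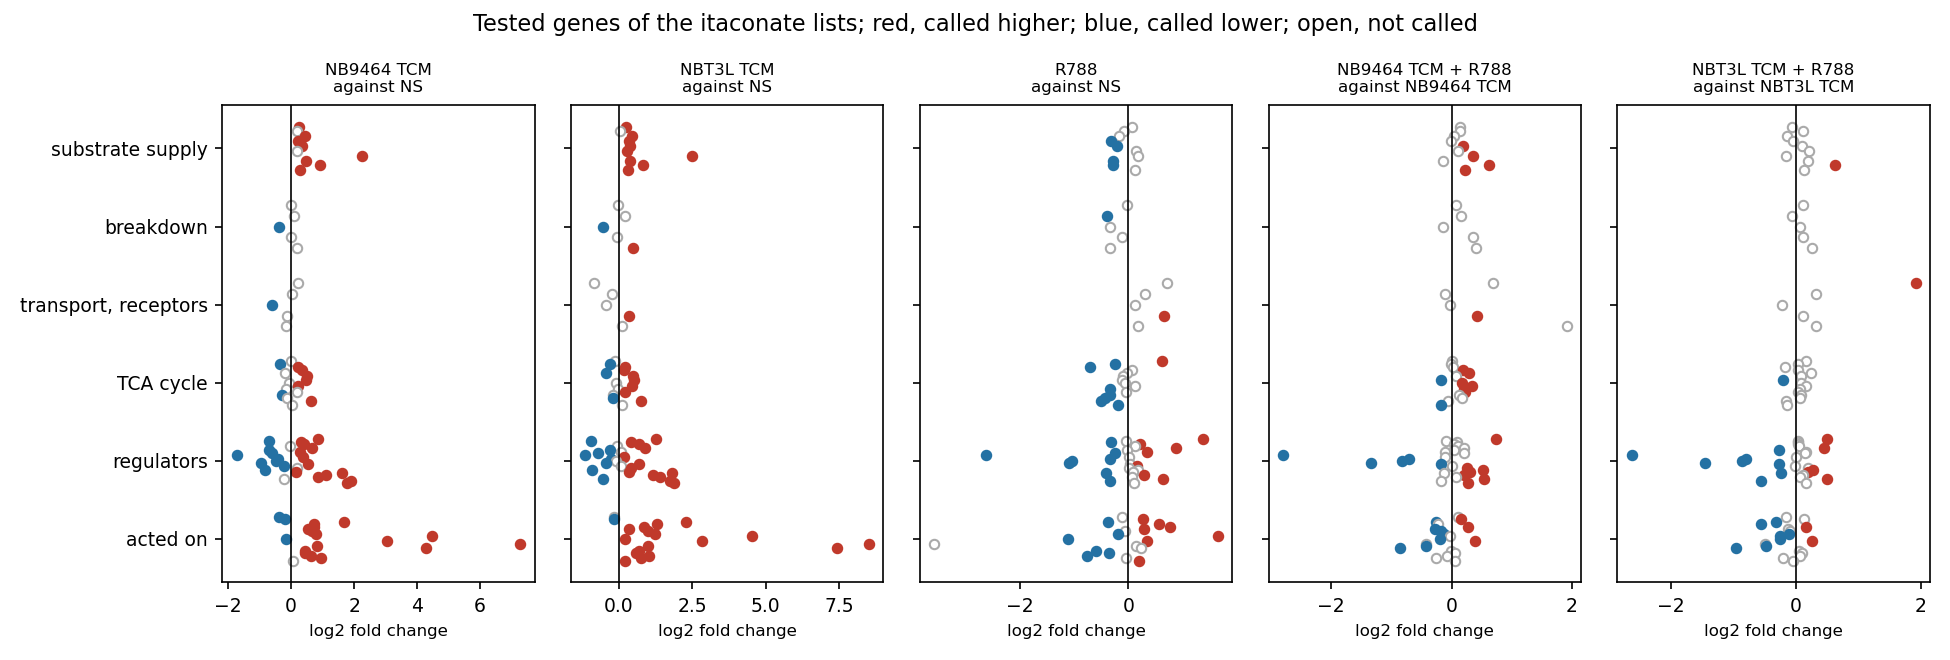
Log2 fold changes of the tested genes of the 6 lists (rows) in 5 comparisons (panels, each with its own scale). Red points were called higher, blue lower and open points were not called. The substrate supply row holds 8 and 9 red points and no blue one in the TCM panels, and 4 blue and no red one for R788 against NS.

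The regulators of Acod1 moved in both directions. Of 25 tested regulators, 88.0% were called with NB9464 TCM and 84.0% with NBT3L TCM. Among genes averaging 100 normalized counts or more, 46.9% and 48.9% were called. With NB9464 TCM 13 of the regulators were called higher and 9 lower, and with NBT3L TCM 13 and 8. Those that rose most were Tnfaip3 (A20, a brake on NF-κB, 1.91 and 1.74), Zc3h12a (an RNase that degrades cytokine mRNA, 1.76 and 1.86), the cytokine Tnf (1.60 and 1.81), Cebpb (1.09 and 1.17), Hif1a (0.86 and 1.41) and Tlr2 (0.84 and 1.28). Irf7 fell by 1.73 and 1.14, Stat2 by 0.95 and 0.44 and Irf9 by 0.41 and 0.25 on the log2 scale, while Irf8 was at 0.37 and 0.19 and Irf3 at 0.28 and 0.09. Of these last values, that of Irf8 with NB9464 TCM was called with each library left out in turn. The calls of Irf8 with NBT3L TCM and of Irf3 with NB9464 TCM were lost without SJ1 (0.16 and 0.20, adjusted p = 0.15 and 0.24), the first also without SJ5 and the second without SJ3 or SJ4 (adjusted p = 0.12, 0.069 and 0.11). The call of Irf9 with NBT3L TCM was lost without SJ1, SJ5 or SJ6 (adjusted p = 0.054, 0.052 and 0.054). Irf1, which can bind the Acod1 promoter, fell by 0.71 with NB9464 TCM. With NBT3L TCM it was at -0.29, a call lost without SJ1, SJ5 or SJ6 (adjusted p = 0.11, 0.054 and 0.090). Ifnb1 had counts only in the NBT3L TCM libraries, 8 and 10. Exons of Irf1, Irf3, Irf7, Cebpb and Hif1a overlap a gene on the other strand. Those of Irf9 and Hif1a share bases with a gene on their own strand.

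Irf7, Stat2 and Irf9, which act in type I interferon signaling, fell with R788 in all 3 media. Irf7 was at 25188 ± 186 normalized counts in NS and 4073 ± 92 in R788. It went from 7581 ± 7 to 1086 ± 13 with NB9464 TCM and from 11469 ± 204 to 1850 ± 107 with NBT3L TCM. These were log2 differences of -2.63 ± 0.059, -2.80 ± 0.066 and -2.63 ± 0.063, all called. Stat2 fell by 1.11, 1.34 and 1.46 and Irf9 by 0.34, 0.71 and 0.80 in the same order, all called. Without TCM, Irf1, Irf3 and Irf8 were at -0.03, 0.34 and 0.01 under R788. Of these, Irf3 was called higher, a call lost without SJ1 (0.26, adjusted p = 0.12). The Acod1 difference in the same comparisons was -0.14, -0.45 and -0.46. Tlr2 and Tfeb, a lysosomal transcription factor, rose with R788 in all 3 media, by 1.38, 0.74 and 0.49 and by 0.63, 0.54 and 0.49.

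Of 19 genes for proteins and programs that itaconate acts on, 18 were called with each TCM. Of these, 15 were higher with NB9464 TCM and 17 with NBT3L TCM. The share called was 94.7% with each, against 46.9% and 48.9% of genes averaging 100 normalized counts or more. In the NRF2 program, Hmox1 (heme oxygenase 1) went from 38164 ± 316 to 120976 ± 3562 and 186139 ± 3299 (log2 1.66 and 2.29), and Slc7a11, the cystine transporter, from 1379 ± 61 to 30676 ± 3354 and 31669 ± 585 (4.48 and 4.52). Txnrd1, Srxn1, Gclm, Gclc and Nqo1 also rose, by 0.36 to 1.29. The mRNA of NRF2 itself, Nfe2l2, was at -0.19 and -0.17, and both calls were lost without SJ1 (adjusted p = 0.071 and 0.13), the second also without SJ5 or SJ6 (adjusted p = 0.056 and 0.13). Nfkbiz, which encodes IκBζ, rose by 3.03 and 2.83, and Il1b from 54 ± 2 to 1044 ± 112 and 9305 ± 42 normalized counts. The glycolytic targets Gapdh, Aldoa and Ldha rose by 0.43 to 1.03. Exons of Gclm, Il1b, Gapdh and Aldoa overlap a gene on the other strand, and those of Gclm also a pseudogene on its own.

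Under R788, Hmox1 fell in all 3 media, by 0.37, 0.27 and 0.33 on the log2 scale, as the Acod1 values did (adjusted p = 2.7e-17, 5.2e-09 and 1.8e-13). Il1b fell with both TCM, by 0.86 and 0.96 (adjusted p = 1.0e-13 and 1.0e-21), and was at 0.23 without TCM, where it had 54 and 63 normalized counts on average. Nfkbiz was higher in all 3 media, by 0.33, 0.39 and 0.26. The first of these calls was lost when only the libraries compared were fitted (adjusted p = 0.081). Slc7a11 rose by 1.65 without TCM and was at -0.03 with NB9464 TCM.

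Between the 2 media, 28 of the 79 genes were called and 25 of them were lower with NB9464 TCM. The shares called were 9.40% of all genes and 14.0% of genes averaging 100 normalized counts or more. The 25 held 13 of the 19 targets, among them Il1b (-3.16), Hmox1 (-0.62), Nqo1 (-0.57) and Txnrd1 (-0.45), and 10 regulators, among them Irf7 (-0.60), Hif1a (-0.55) and Stat2 (-0.51). None of the 10 substrate supply or the 5 breakdown genes was called. Acod1 and Slc13a3 were lower with NB9464 TCM as well, by the values above.

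The effect of R788 itself differed from that without TCM for 32 of the 79 genes with NB9464 TCM (20 in the higher and 12 in the lower direction, against 12.5% of all genes) and for 30 with NBT3L TCM (16 and 14, against 10.1%). These 2 contrasts share the NS and R788 libraries. Among genes averaging 100 normalized counts or more, the contrasts called 18.3% and 15.0%. Slc25a10 had an interaction of 0.91 in each (adjusted p = 1.8e-23 and 2.5e-23), and Idh3a and Mdh2 were also called in the higher direction in both. Idh1, Tlr2, Slc7a11, Nqo1 and Il1b were called in the lower direction in both. Slc13a3 had 1.91 and 2.31, and Acod1 -0.31 and -0.32.

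The genes most like Acod1 and Slc13a3 in level were found by Pearson's r of log2(normalized count + 1) over the 12 libraries over 10715 genes whose mean was 100 or more. For Acod1 these were Cd274 (PD-L1, r = 0.997), Pilra, Sema4c, Ptges (prostaglandin E synthase) and Pfkfb3 (all r of 0.995 or more). Cd274 went from 1642 normalized counts on average in NS to 7041 with NB9464 TCM and 9461 with NBT3L TCM, and Ptges from 407 to 12604 and 18739. For Slc13a3 they were Hyou1 (r = 0.996), Cfb, P4hb, Cd300e and Slc35b1 (r of 0.992 or more). Cd300e, a myeloid receptor, went from 1301 in NS to 366 in R788, and from 8757 to 12136 and from 11652 to 14410 when R788 was added to the media, the same directions as Slc13a3.

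Such correlations mostly express the gap between the libraries with and without TCM, which share a medium. Within the 8 libraries with TCM, r was 0.66 to 0.94 for the 5 genes of Acod1 and 0.34 to 0.86 for those of Slc13a3, and none of the 10 was among the 5 most alike there. Acod1 and Slc13a3 themselves had r = 0.98 over the 12 libraries, where Slc13a3 was the 118th of 10714 genes, and r = 0.06 within the 8 with TCM. These are descriptions over few and clustered libraries.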

How the data were processed

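The deposited table holds whole-number read counts per Ensembl gene, not normalized by the authors. Per the labels and the submitters' processing notes, reads were mapped to mm10, and STAR 2.6.1d, Salmon 1.4.0, SAMtools 1.9, Picard 2.26 and MultiQC 1.11 are named. Which of them produced the counts, strand use and treatment of reads with several matches are not given in the sources used here. The labels give paired-end reads and 2 libraries a group, and the methods single reads and triplicates. Even values made up 65.2% to 67.9% of counts from 1 to 40, and a fit on halved counts was one of the alternatives.

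Groups came from the labels. Symbols and positions came from GENCODE M21 (GRCm38), which named 54079 of 54232 genes. Of 2 IDs named Aldoa, the one with more counts was used. The test covered 16281 genes, those reaching 10 counts in 2 or more libraries, in 1 DESeq2 1.42.0 fit over 12 libraries in R 4.3.3 (median-of-ratios scaling, two-sided Wald tests, Benjamini-Hochberg adjustment within a contrast, called under 0.05). Genes without an adjusted p were not called. TPM was computed from the counts and the deposited gene lengths. The tests were checked on simulated counts. Alternatives were edgeR 4.0.16 (quasi-likelihood, TMM), TMM scaling in DESeq2, no filter, a mean of at least 50, a covariate for odd or even library number, only the libraries compared, and each library left out.

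The genes and the lists were chosen with earlier results of these data known. The text names Acod1, Slc13a3, Syk, members of the lists, mainly the called ones of largest change in a list, and the 5 genes most like each of the 2 by Pearson's r. Labels number the libraries SJ1 to SJ12, so no replicate number is shared between groups. No batch is given. Some genes of the lists and markers enter the counts and sums but are not reported here by name. All count columns were used. Where exons overlap those of another gene, the counting is uncertain.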

Additional observations from a re-analysis of the deposited data

Results flagged for a closer look

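The effect of R788 on Slc13a3 had opposite signs without and with TCM in every pair of libraries. It was -1.70 without TCM against 0.21 with NB9464 TCM, a difference of 1.91, and 0.61 with NBT3L TCM, a difference of 2.31. The difference was not tested, since the gene was chosen for it.

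In 5 genes of the lists named here the R788 effect passed the test in opposite directions without TCM and with a TCM, and the difference between the effects was called too (DESeq2). Slc25a10 went from -0.29 to 0.63 with either TCM, with differences of 0.91 and 0.91 (adjusted p = 1.8e-23 and 2.5e-23). Nqo1 went from 0.57 to -0.57 with NBT3L TCM, a difference of -1.14 (adjusted p = 1.2e-10). Slc7a11 went from 1.65 to -0.26 with NBT3L TCM, a difference of -1.91 (adjusted p = 1.4e-55), and the -0.26 was not called with edgeR (adjusted p = 0.054) or without SJ5, SJ6, SJ11 or SJ12 (adjusted p from 0.075 without SJ6 to 0.13 without SJ5).

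With NB9464 TCM, Sdhc, a subunit of succinate dehydrogenase, went from -0.35 to 0.21, a difference of 0.56 (adjusted p = 8.0e-07), and Gclc, a subunit of the enzyme that starts glutathione synthesis, from 0.29 to -0.27, a difference of -0.56 (adjusted p = 4.7e-05). Single effects of both genes were close to the threshold. That of Sdhc with TCM was 0.13 without SJ3 (adjusted p = 0.36), and was not called with edgeR (adjusted p = 0.067) or without SJ9 or SJ10 (adjusted p = 0.25 and 0.068). That of Gclc without TCM was 0.23 without SJ1 (adjusted p = 0.088), and that with TCM was -0.16 without SJ3 (adjusted p = 0.31) and not called without SJ9 or SJ10 (adjusted p = 0.089 and 0.083).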

How the results depend on the processing

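No log2 difference of Acod1 or Slc13a3 changed sign under any alternative run. Of 192 such values, 188 moved by no more than the SD of the log2 differences over pairs of libraries. With 2 libraries a group, leaving 1 out can hardly move a value by more than that SD. The alternatives that left out a library were therefore bound to stay within it in most cases, and this number does not measure robustness. Counts of called pathway genes moved by over 1.5 times in 11 of 96. For R788 with NB9464 TCM the 35 genes called became 23 with edgeR and 19 to 26 when a library was left out (19 without SJ3, 20 without SJ9 and 20 without SJ10). For R788 with NBT3L TCM the 25 became 43 with only the libraries compared and 16 to 17 when a library was left out (16 without SJ5 and 16 without SJ6). For NB9464 TCM against NBT3L TCM the 28 became 18 with edgeR and 17 to 24 when a library was left out (18 without SJ3, 17 without SJ5 and 17 without SJ6). The cause was not tested, apart from the smaller number of libraries. Where a library was left out, its lone partner is assumed to vary like the other groups. Of the 5 genes most like Acod1, 2 remained among the 5 without the R788 libraries that had no TCM and 0 with Spearman's rho, and of those most like Slc13a3 0 remained in either. The comparison within the 8 libraries with TCM (0 and 0 remained) and the alternatives to the interactions and to comparisons under R788 were added after the data were seen. No paired analysis was possible because the groups share no replicate numbers.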
